A study of Homo sapiens with 6 samples.

Results

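The endoplasmic reticulum (ER) stress genes described here are 10 genes chosen by symbol: the stress sensors ERN1, EIF2AK3 and ATF6, the transcription factor XBP1, the chaperones and folding enzymes HSPA5, HSP90B1, CALR and PDIA4, and the degradation factors SEL1L and HERPUD1. They were taken from 19775 genes that had a probe set listing that gene alone, and together they had 26 such probe sets. A further 2 probe sets list HSP90B1 together with MIR3652, a microRNA locus, and were assigned to neither gene. A probe set is a group of short array probes read as 1 value.

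Cells of SK-Hep1, an established human cell line derived from an adenocarcinoma of the liver, were either transfected with 20 nM of anti-miR-21, an oligonucleotide against the microRNA miR-21, or mock-treated. Plating preceded transfection by 24 hours, cells were collected 16 hours after it, and each group had 3 arrays from samples called biological replicates. The design text calls the mock compound PBS, the treatment protocol says only that the oligonucleotide was left out, and no group here received an unrelated oligonucleotide. The collection protocol cites an Argonaute immunoprecipitation procedure, while the molecule label reads total RNA, so the fraction measured is given as labelled. All samples came from this 1 line, and in bulk RNA fewer cells of a kind cannot be told apart from less RNA per cell. The sequence of the microRNA that the treatment addresses follows, because no member probe set measures it. It comes from the RefSeq table of GRCh38.p14 (chromosome 17, 59841273 to 59841294, plus strand), with the seed, bases 2 to 8, in capitals.
hsa-miR-21-5p: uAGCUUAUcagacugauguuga

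Proteins that enter the ER are folded there by chaperones, and unfolded chains are returned to the cytosol and degraded. When unfolded protein accumulates, the membrane sensors encoded by ERN1, EIF2AK3 and ATF6 are known to act in parallel: IRE1 splices the XBP1 transcript, PERK slows translation and favours ATF4, and ATF6 is cut to release a transcription factor. Spliced XBP1 and cut ATF6 raise chaperone and degradation genes through short promoter elements. Activation of the sensors is a matter of phosphorylation, splicing and cleavage, and none of these was examined here.

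The elements are shown here because they are the kind of sequence through which these factors are known to act. The ER stress element (ERSE) was searched as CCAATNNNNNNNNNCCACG, the related ERSE-II as ATTGGNCCACG and the unfolded protein response element (UPRE) as TGACGTGG, each on both strands, from 250 bases before to 50 after the transcript start. ERSE and ERSE-II are built from the same CCAAT and CCACG boxes, but no match of one overlapped a match of another in these genes. Among 35116 windows of 300 bases, 0.0769% held ERSE, 0.0541% ERSE-II and 0.729% UPRE. The members had 12 distinct windows, with 2 each for XBP1 and PDIA4. ERSE was found in 4 of the 10 genes (HSPA5, HSP90B1, XBP1 and CALR), ERSE-II in 1 (HERPUD1) and UPRE in none. ATF6, ERN1, EIF2AK3, SEL1L and PDIA4 held none of these letter strings in this window. A match is a description of sequence and says nothing about binding in these cells.

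The matches are printed in the direction of the gene with 20 bases on either side, and the fixed letters of the element are in capitals. On GRCh38.p14 they lie at chr9:125241371-125241429 (HSPA5, minus strand), chr12:103930196-103930254 and chr12:103930301-103930359 (HSP90B1, plus strand), chr22:28800583-28800641 (XBP1, minus strand), chr19:12938364-12938422 (CALR, plus strand) and chr16:56932005-56932055 (HERPUD1, plus strand). The HSPA5 element starts 66 bases before the transcript start, the HSP90B1 elements 194 and 89 bases before it, that of XBP1 52, that of CALR 225 and that of HERPUD1 117.
HSPA5 ERSE: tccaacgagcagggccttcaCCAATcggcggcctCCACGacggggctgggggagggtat
HSP90B1 ERSE, upstream copy: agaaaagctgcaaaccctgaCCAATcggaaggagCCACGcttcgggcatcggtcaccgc
HSP90B1 ERSE, downstream copy: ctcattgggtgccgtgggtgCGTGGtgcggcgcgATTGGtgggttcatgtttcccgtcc
XBP1 ERSE: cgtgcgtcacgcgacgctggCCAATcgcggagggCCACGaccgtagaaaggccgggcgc
CALR ERSE: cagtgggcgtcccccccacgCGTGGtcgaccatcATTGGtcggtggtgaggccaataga
HERPUD1 ERSE-II: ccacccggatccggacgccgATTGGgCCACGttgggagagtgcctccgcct

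**Figure D1:**
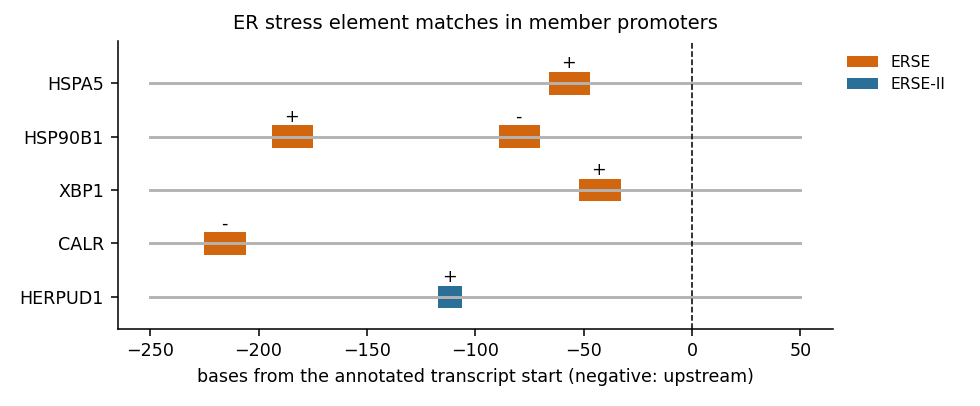
Positions of the ERSE and ERSE-II matches relative to the annotated transcript start (dashed line), in bases, for the 5 member genes that hold one; plus and minus signs give the strand relative to the gene. HSP90B1 holds 2 ERSE matches, on opposite strands, and HERPUD1 holds the ERSE-II match.

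Expression values are log2 values per probe set, background-corrected and normalized between arrays by the authors. Probe sets with a mean of at least 4 over the 6 arrays were tested, which kept 22 of the 26 member probe sets, at least 1 for every gene. The first principal component of the kept probe sets held 50.4% of the variance and placed anti-miR-21 replicates 1, 2 and 3 at 3.51, 20.11 and 19.63, against mock arrays between -19.95 and -7.25, so that anti-miR-21 replicate 1 lay nearest the mock arrays. The difference between 3' and 5' control probe sets of ACTB was 0.589 to 0.606 in the anti-miR-21 arrays and 0.491 to 0.628 in the mock arrays (exact permutation test, two-sided, p = 0.7), and that of GAPDH -0.285 to -0.263 in the anti-miR-21 arrays and -0.278 to -0.258 in the mock arrays (exact permutation p = 1); 3 arrays against 3 cannot give less than 0.1. Of the hepatocyte markers, 2 of 7 measured genes reached 4 (SERPINA1 and AFP), and ALB, APOA1, APOB, TTR and FGA did not. AFP lay just above the filter, at means of 4.16 in anti-miR-21 arrays and 4.28 in mock arrays. Of the endothelial markers 1 of 6 reached 4 (TEK, at means of 4.67 and 4.64). Of the mesenchymal markers 4 of 4 did, of the epithelial 2 of 3 and of the leukocyte markers 1 of 3. The hepatocyte markers summed to 28.6 to 29.2 in the anti-miR-21 arrays and 28.7 to 28.9 in the mock arrays, on the log2 scale. The leukocyte sums did not overlap between groups, at 10.14 to 10.19 in the anti-miR-21 arrays and 9.88 to 10.01 in the mock arrays. PTPRC and CD3E were below 4, and CD14, with a difference of 0.12 (limma adjusted p = 0.574), did overlap between groups. The sums of the other 4 lists overlapped.

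The question asked of the 10 genes was whether their transcripts differed 16 hours after anti-miR-21. Most did not pass the test, and most differences were small. Of the 22 tested member probe sets, 1 fell, none rose and 21 did not pass, or 4.55% called (limma adjusted p under 0.05), where 2.17% of all 22408 probe sets tested were called and 1.07% were called lower. At an unadjusted p under 0.05 there were 3 member probe sets (13.6%), against 17.8% of all probe sets. The median log2 fold change of the members, anti-miR-21 minus mock, was 0.006, against -0.003 over all probe sets, and 12 of the 22 were positive. Changes under 0.1 in size made up 72.7% of the member probe sets and 56.2% of all. Array groups did not overlap for 3 of the 22 member probe sets (13.6%), against 24.0% of all probe sets. When each gene was represented by its brightest probe set, none of the 10 members passed, where 2.13% of 10848 genes did; 1 member, HERPUD1, had an unadjusted p under 0.05.

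**Figure D2:**
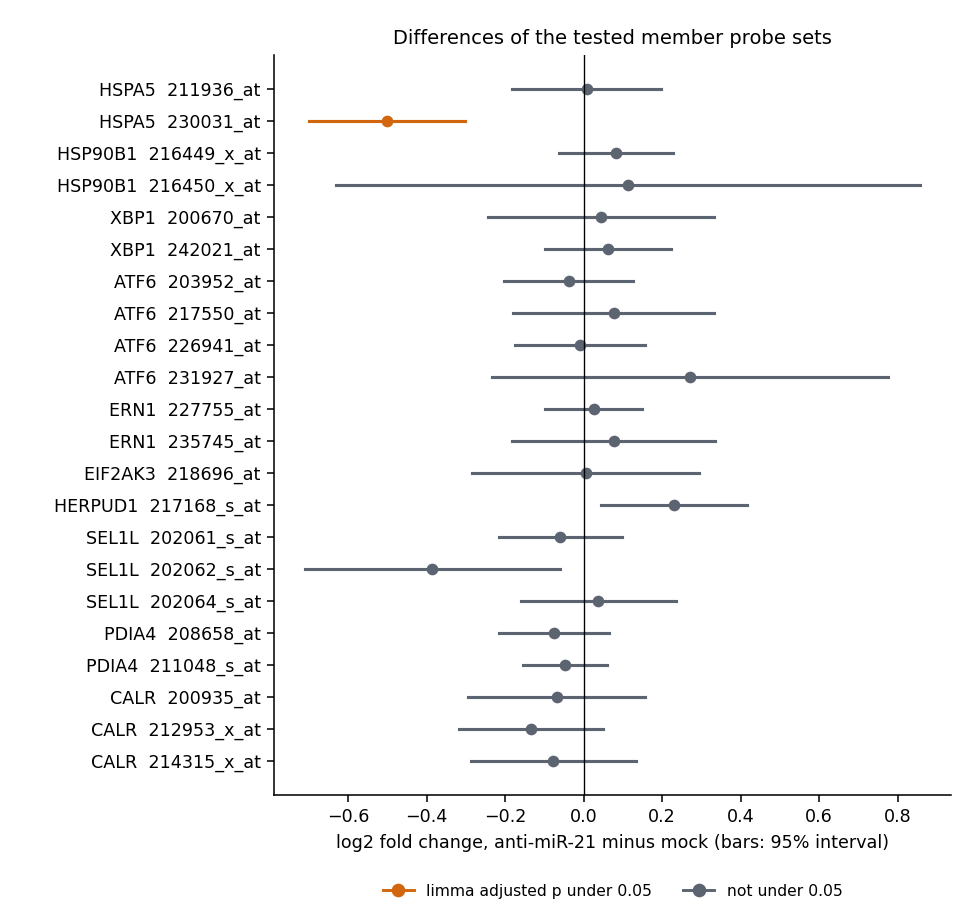
Log2 fold change (anti-miR-21 minus mock) of the 22 tested member probe sets; points are limma estimates and bars their 95% intervals, from 3 arrays per group. The interval of HSPA5 230031_at lies between -0.70 and -0.30, while those of 19 of the others include 0 and those of HERPUD1 217168_s_at and SEL1L 202062_s_at lie to 1 side of it without passing after adjustment.

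The probe set that fell belongs to HSPA5, which encodes BiP, the chaperone that holds unfolded chains and keeps the sensors inactive. Probe set 230031_at read 8.42, 8.36 and 8.16 in anti-miR-21 arrays, against 8.77, 8.77 and 8.91 in mock arrays. Every anti-miR-21 array lay below every mock array. Its means were 8.32 ± 0.14 and 8.82 ± 0.08 (SD, n = 3 each), and it fell by 0.50 ± 0.083 SE on the log2 scale (95% interval -0.70 to -0.30, limma adjusted p = 0.0363), which is 1.42-fold lower with anti-miR-21. The call was lost when any array other than anti-miR-21 replicate 1 was left out: the adjusted p was then 0.120 and 0.0972 for anti-miR-21 replicates 2 and 3, and 0.0670, 0.115 and 0.112 for mock replicates 1, 2 and 3. It was also lost without the filter (adjusted p = 0.0717) and after a repeated quantile normalization (0.0527). In all, 8 of the 12 alternatives ended the call, although the difference stayed between -0.55 and -0.42 under all 12 alternatives, with adjusted p from 0.0231 to 0.148.

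The other HSPA5 probe set, 211936_at, did not follow it. It read 14.27, 14.39 and 14.36 in anti-miR-21 arrays, against 14.49, 14.24 and 14.27 in mock arrays, so the groups overlapped. The difference was 0.01 ± 0.080 SE (95% interval -0.18 to 0.20, limma adjusted p = 0.969). The 2 probe sets were therefore set against each other on every array. 230031_at minus 211936_at was -5.85, -6.03 and -6.20 in anti-miR-21 arrays, against -5.72, -5.48 and -5.36 in mock arrays, again without overlap. This difference between probe sets was lower with anti-miR-21 by -0.51 (95% interval -0.80 to -0.22), but across the 14103 probe sets of 5285 genes that could be compared in this way it did not pass (limma adjusted p = 0.158, and 0.106 to 0.429 over the 12 alternatives). Of those 14103 probe sets, 145 passed. The annotation gives no accession for 230031_at, so which part of the transcript it reads was not examined. With both probe sets averaged, HSPA5 differed by -0.25 ± 0.056 SE (limma adjusted p = 0.0636).

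**Figure D3:**
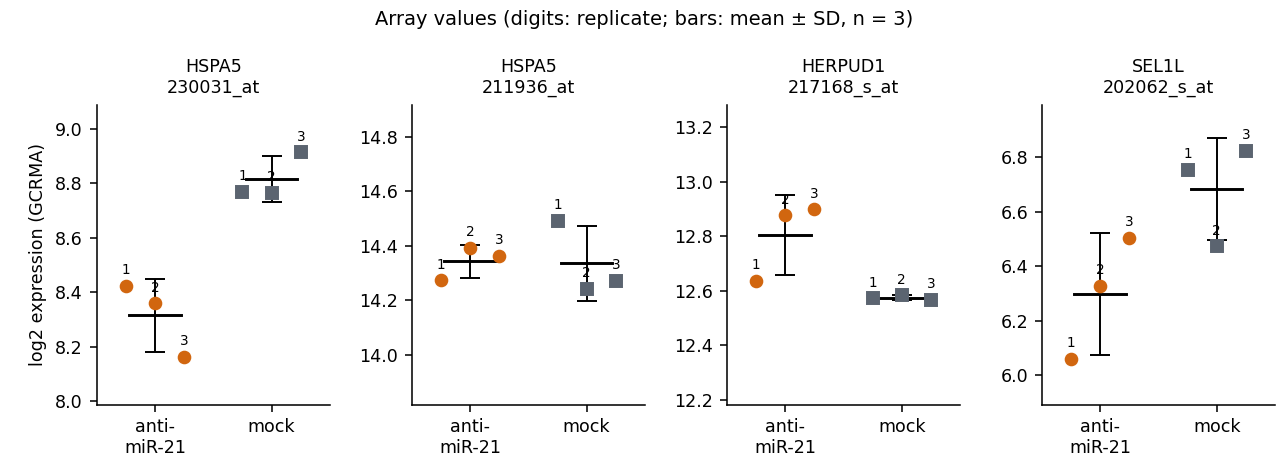
Log2 expression of 4 member probe sets on each array, anti-miR-21 left and mock right; digits give the replicate, and bars the mean with its SD (n = 3 each). In HSPA5 230031_at the anti-miR-21 arrays all lie under the mock arrays, in HSPA5 211936_at the groups mix, in HERPUD1 anti-miR-21 replicate 1 stands near the mock arrays, and in SEL1L 202062_s_at anti-miR-21 replicate 3 lies above mock replicate 2.

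No probe set of the other chaperones and folding enzymes passed. HSP90B1 encodes GRP94, the HSP90 of the ER, and its probe set 216449_x_at read 11.98, 11.99 and 12.02 in anti-miR-21 arrays, against 12.02, 11.89 and 11.84 in mock arrays. Mock replicate 1 lay within the anti-miR-21 values, and the difference was 0.08 (95% interval -0.06 to 0.23, limma adjusted p = 0.525). The 2 probe sets shared with MIR3652 differed by 0.06 and 0.08 (limma adjusted p = 0.562 and 0.581). The remaining probe set of HSP90B1, 216450_x_at, was the most variable of all 22, at 8.39, 7.51 and 7.92 in anti-miR-21 arrays, against 7.21, 8.16 and 8.12 in mock arrays. Its interval, -0.63 to 0.86, leaves its direction unmeasured. The "_x_at" probe sets are of a kind that can bind related transcripts, which applies to both HSP90B1 probe sets and to 2 of CALR.

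CALR encodes calreticulin, a calcium-binding chaperone for glycoproteins, and all 3 of its probe sets had a negative difference that did not pass. 212953_x_at read 11.75, 11.65 and 11.87 in anti-miR-21 arrays, against 11.80, 11.89 and 11.98 in mock arrays, a difference of -0.13 (95% interval -0.32 to 0.05, limma adjusted p = 0.414). 214315_x_at and 200935_at differed by -0.08 and -0.07 (limma adjusted p = 0.697 and 0.751), and the difference of 200935_at was 0.005 without anti-miR-21 replicate 1. PDIA4 encodes ERp72, a disulfide isomerase. Its probe set 211048_s_at was among the tightest, at 12.16, 12.19 and 12.21 in anti-miR-21 arrays, against 12.23, 12.22 and 12.24 in mock arrays. The groups did not overlap, yet the difference was only -0.05 (95% interval -0.15 to 0.06, limma adjusted p = 0.636). The other PDIA4 probe set, 208658_at, differed by -0.08 (95% interval -0.22 to 0.06, limma adjusted p = 0.546).

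HERPUD1, a membrane protein of the ubiquitin ligase that clears misfolded ER proteins, had the clearest difference upwards without passing. Its tested probe set, 217168_s_at, read 12.64, 12.88 and 12.90 in anti-miR-21 arrays, against 12.57, 12.58 and 12.57 in mock arrays. All anti-miR-21 arrays lay above all mock arrays, with anti-miR-21 replicate 1 only just above them. The means were 12.80 ± 0.15 and 12.57 ± 0.01 (SD, n = 3 each), and the difference was 0.23 ± 0.078 SE, or 1.17-fold (95% interval 0.04 to 0.42, limma adjusted p = 0.199). Without anti-miR-21 replicate 1 it was 0.31 and passed (limma adjusted p = 0.0470), whereas over the 12 alternatives the adjusted p ran from 0.0470 to 0.475 and the difference from 0.18 to 0.31. The other HERPUD1 probe set was below the filter, at 2.63 to 2.80 in anti-miR-21 arrays and 2.64 to 2.75 in mock arrays.

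SEL1L, the scaffold of the ligase that HERPUD1 joins, gave unequal readings among its probe sets. 202062_s_at read 6.06, 6.33 and 6.51 in anti-miR-21 arrays, against 6.75, 6.47 and 6.82 in mock arrays. The groups overlapped by 1 array, and the difference of -0.39 ± 0.136 SE (95% interval -0.71 to -0.06) did not pass (limma adjusted p = 0.213, and 0.168 to 0.441 over the alternatives). 202061_s_at, at 10.42, 10.37 and 10.40 in anti-miR-21 arrays, against 10.57, 10.36 and 10.43 in mock arrays, differed by -0.06 (limma adjusted p = 0.683), and 202064_s_at by 0.04 (limma adjusted p = 0.847). Set against the mean of the gene's other tested probe sets, 202062_s_at was lower with anti-miR-21 by -0.37, which did not pass either (limma adjusted p = 0.392). The fourth SEL1L probe set, 202063_s_at, was below the filter at 2.46 to 2.52 over all arrays.

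None of the sensors had a probe set that passed. EIF2AK3 encodes PERK, a kinase of the translation factor eIF2, and its tested probe set 218696_at read 9.43, 9.46 and 9.34 in anti-miR-21 arrays, against 9.69, 9.30 and 9.23 in mock arrays. The anti-miR-21 arrays lay inside the mock range. The difference was 0.005 (95% interval -0.28 to 0.29, limma adjusted p = 0.988) and turned negative when 1 of 4 arrays was left out (anti-miR-21 replicates 1 and 2, mock replicates 2 and 3). ERN1 encodes IRE1α, the kinase and ribonuclease that splices XBP1. Its probe set 227755_at read 7.29, 7.34 and 7.25 in anti-miR-21 arrays, against 7.24, 7.26 and 7.31 in mock arrays, a difference of 0.03 whose 95% interval, -0.10 to 0.15, was narrow for a member. The other tested ERN1 probe set, 235745_at, differed by 0.08 (limma adjusted p = 0.758). A probe set each of ERN1 and EIF2AK3 was below the filter, at 1.96 to 2.10 over all arrays.

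ATF6, the sensor that is itself a transcription factor precursor, had 4 tested probe sets, and their differences were -0.04, 0.08, -0.01 and 0.27. The one with the highest mean, 226941_at, read 9.32, 9.45 and 9.37 in anti-miR-21 arrays, against 9.50, 9.39 and 9.29 in mock arrays, and its 95% interval ran from -0.18 to 0.16 (limma adjusted p = 0.954). The largest difference was that of 231927_at, at 7.28, 7.78 and 7.73 in anti-miR-21 arrays, against 7.74, 7.22 and 7.01 in mock arrays. Here anti-miR-21 replicate 1 lay among the low mock values and mock replicate 1 among the high anti-miR-21 values, and the interval ran from -0.23 to 0.78 (limma adjusted p = 0.549). XBP1, the factor downstream of IRE1, was likewise mixed: 200670_at read 9.64, 9.94 and 10.01 in anti-miR-21 arrays, against 10.00, 9.78 and 9.68 in mock arrays. The difference was 0.05 (95% interval -0.24 to 0.33, limma adjusted p = 0.877), and its other probe set, 242021_at, which lay just above the filter, differed by 0.06 (limma adjusted p = 0.681). Whether either probe set separates spliced from unspliced XBP1 was not examined.

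Across arrays, the median deviation of the 22 member probe sets from their mock means was -0.05, 0.06 and -0.02 in anti-miR-21 replicates 1, 2 and 3, and 0.06, -0.04 and -0.01 in mock replicates 1, 2 and 3. The groups overlapped in this summary. Mock replicate 1 was the highest of all 6 arrays in HSPA5 211936_at, EIF2AK3 218696_at, SEL1L 202061_s_at and ATF6 226941_at, and the lowest in HSP90B1 216450_x_at, ATF6 203952_at, ERN1 227755_at, ERN1 235745_at and CALR 214315_x_at. Mock replicate 3 was the highest in 7 of the 22 and the lowest in 7 others.

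**Figure D4:**
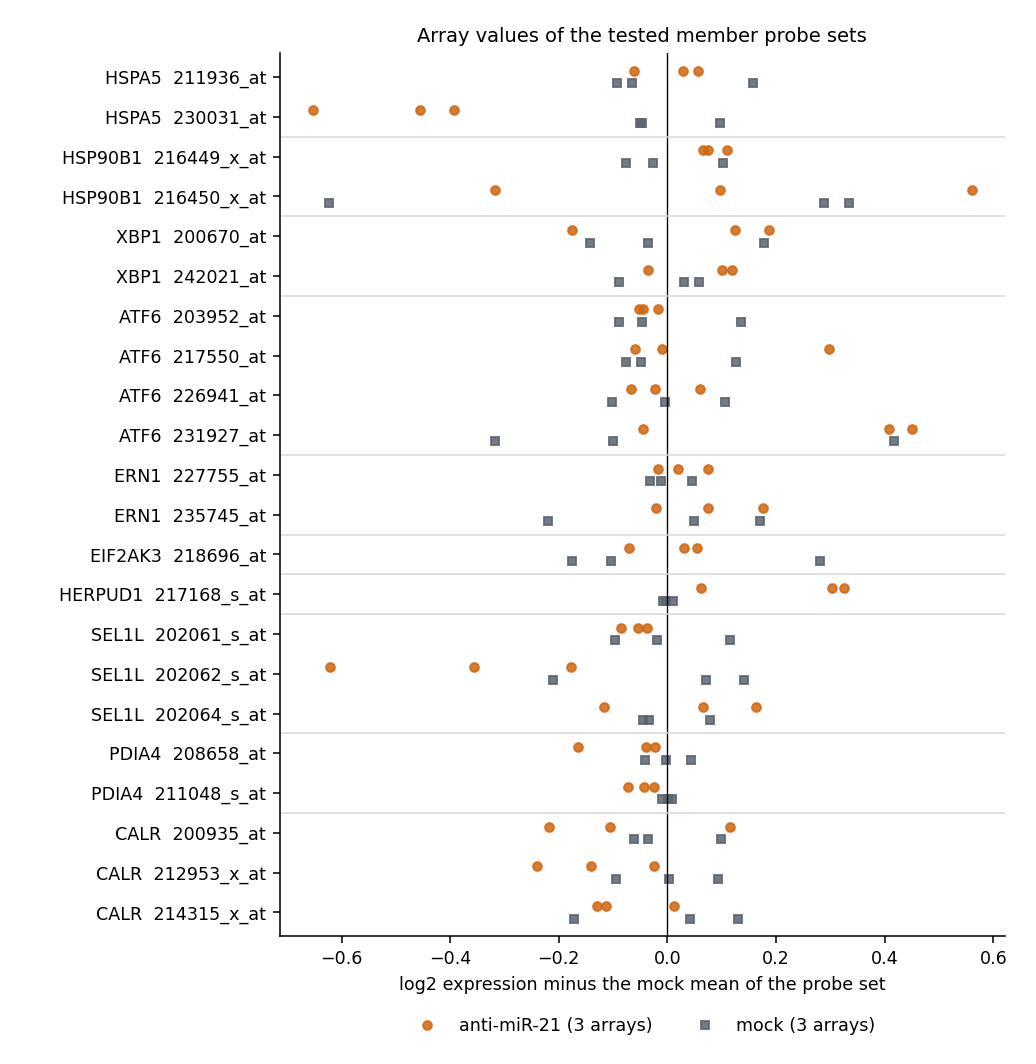
Log2 expression of the 22 tested member probe sets on each of the 6 arrays, minus the mock mean of the probe set, with anti-miR-21 arrays drawn above mock arrays in each row. HSPA5 230031_at, HERPUD1 217168_s_at and PDIA4 211048_s_at are the 3 rows in which the groups do not overlap.

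The rest of the ER stress pathway was described from gene lists, counting each gene by its brightest tested probe set, with 2.13% of all genes called and a median of -0.02 over them. Lists of ER folding factors, degradation factors, sensor partners and translocon genes held no call. Of 22 ER folding factors, none passed, 9 had a positive log2 fold change and the median was -0.02. The peptidyl-prolyl isomerase FKBP14, the secreted stress factor MANF and SDF2L1, a partner of BiP, had differences of -0.20, -0.14 and -0.16 (limma adjusted p = 0.199, 0.355 and 0.372). Among 20 degradation genes none passed (median -0.07), with the ubiquitin-conjugating enzyme UBE2G2 at 0.23, the mannosidase-like protein EDEM2 at -0.23 and the lectin ERLEC1 at -0.15 (limma adjusted p = 0.102, 0.111 and 0.241). At an unadjusted p under 0.05 were 1 of the folding factors (4.55%) and 4 of the degradation genes (20%), against 18.1% of all genes.

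Among 14 sensor partners and proteases none passed (median -0.07). At an unadjusted p under 0.05 were 5 of the 14 (35.7%), against 18.1% of all genes. CREB3L2, a membrane transcription factor related to ATF6, read 10.19, 10.20 and 10.19 in anti-miR-21 arrays, against 10.42, 10.42 and 10.44 in mock arrays. The difference of -0.23 was just outside the threshold (limma adjusted p = 0.0532). CREB3L2 passed with the filter at 6, with the trend and robust setting and without the filter. It did not pass with centred arrays, after a repeated quantile normalization or with any single array left out. MBTPS1, the site-1 protease that cuts ATF6, differed by -0.23 and the adaptor NCK1 by -0.15 (limma adjusted p = 0.151 and 0.182). Of 21 translocon and secretory genes none passed (median -0.04, and 0 genes at an unadjusted p under 0.05). KDELR3, a receptor that returns chaperones to the ER, differed by -0.18, the coat protein gene SEC24D by -0.32 and the translocon subunit SEC63 by 0.09 (limma adjusted p = 0.319, 0.334 and 0.455).

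The PERK-ATF4 list stood at other values in the same arrays. It is named for the pathway, and whether PERK acted on its genes was not tested. Like the other lists, it was chosen with earlier results of these data known, so its shares are description only. The list's median over 18 tested genes was 0.27, and 17 of them (94.4%) were positive, against 43.3% of all genes. Of the 18, 2 rose (11.1% called, against 2.13% of all genes), none fell and 16 missed the threshold. An unadjusted p under 0.05 was reached by 7 of the 18 (38.9%), against 18.1% of all genes. GDF15, a stress cytokine, read 10.97, 11.39 and 11.40 in anti-miR-21 arrays, against 10.26, 10.07 and 10.23 in mock arrays, and rose 2.09-fold (limma adjusted p = 0.0144). ATF3 rose 2.09-fold (limma adjusted p = 0.0422), and DDIT3, which encodes CHOP, had a log2 fold change of 1.07 (adjusted p = 0.0718). Per array the median deviation of the list was -0.003, 0.33 and 0.53 for anti-miR-21 replicates 1, 2 and 3, against -0.05 to 0.06 in mock arrays. The corresponding medians over the 10 members' brightest probe sets were -0.05, 0.06 and -0.02 in anti-miR-21 replicates 1, 2 and 3, against -0.04 to 0.10 in mock arrays. HERPUD1 was the 1 member with a tested probe set above mock in all 3 anti-miR-21 arrays. That is 1 of the 22 tested member probe sets, against 2558 of all 22408. Replicate 1 was the lowest anti-miR-21 array of HERPUD1, as it also was in members such as XBP1 200670_at and PDIA4 211048_s_at. In others, such as HSPA5 230031_at and SEL1L 202061_s_at, replicate 1 was the highest anti-miR-21 array.

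Among 11 heat shock genes 1 fell (9.09% called, against 2.13% of all genes), none rose and the median was -0.04. An unadjusted p under 0.05 was reached by 3 of the 11 (27.3%), against 18.1% of all genes. The list holds the cytosolic chaperones and co-chaperones, the mitochondrial chaperonins HSPD1 and HSPE1, and the heat shock transcription factor HSF1. DNAJB1, a co-chaperone of HSP70 and a heat shock target, read 13.33, 13.26 and 13.30 in anti-miR-21 arrays, against 13.71, 13.79 and 13.75 in mock arrays, and fell by 0.45 on the log2 scale (limma adjusted p = 0.0117). HSPA4L, an HSP110 relative, differed by -0.41, and BAG3, a co-chaperone of HSP70, by -0.23 (limma adjusted p = 0.113 and 0.226). The 3 calls in the 6 lists, GDF15, ATF3 and DNAJB1, changed with single arrays left out. Leaving out anti-miR-21 replicate 2 or 3 or mock replicate 2 gave 0 calls, and mock replicate 3 gave 1 (DNAJB1). Mock replicate 1 gave 2 (DNAJB1 and GDF15), and anti-miR-21 replicate 1 gave 7. Calls over all probe sets, 486 with every array, were 572, 106 and 96 without anti-miR-21 replicates 1, 2 and 3. They were 422, 97 and 185 without mock replicates 1, 2 and 3, so the losses were not particular to these genes. ATF3 was also not called without the filter.

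**Figure D5:**
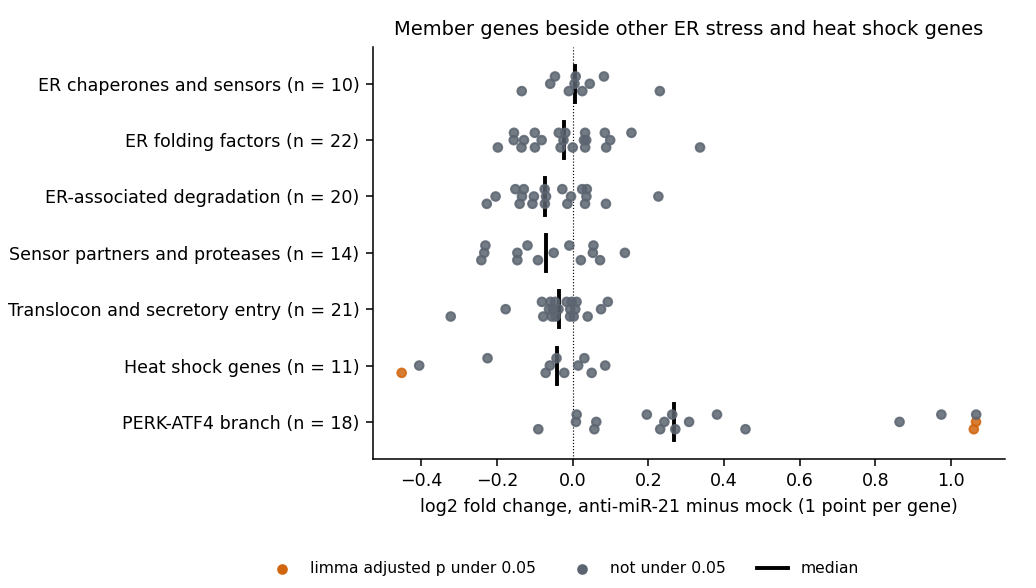
Log2 fold change (anti-miR-21 minus mock) of each gene's brightest tested probe set, by list, with 1 point per gene and a bar at the list's median; orange points passed (limma adjusted p under 0.05). The 10 member genes lie between -0.13 and 0.23 with a median of 0.006, while the PERK-ATF4 list has its median at 0.27.

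The genes whose array profile lay closest to HSPA5 230031_at were sought by the root mean square difference over the 6 arrays, after each probe set's mock mean was subtracted. They were ENPP2, the secreted lysophospholipase autotaxin (0.055), CRISPLD2, a secreted protein (0.057), ZNF254, a zinc finger gene (0.059), EIF2AK1, the heme-regulated kinase of eIF2 (0.062), and RHBDD1, a rhomboid protease of the ER (0.070). Their log2 fold changes were -0.53, -0.44, -0.50, -0.49 and -0.49. This likeness selects probe sets with a similar difference and carries no test.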

How the data were processed

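RNA from 6 SK-Hep1 samples was hybridised to single-colour arrays, 1 per sample. The values deposited by the authors are on the log2 scale for 54675 probe sets and come from GCRMA, as the submitters' processing notes say, with its version not given in the sources used here. GCRMA corrects background by probe sequence and normalizes between arrays. It compresses dim values, so that differences near the filter can be understated. Depth does not apply, and the number of arrays limits precision.

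Samples were grouped by title. Genes were named from the platform annotation, with symbols checked by identifier against RefSeq (GRCh38.p14): 41043 single-gene entries matched and no symbol changed. Probe sets listing several genes (1801) named none. Probe sets with a mean of at least 4 entered a two-sided limma fit (version 3.58.1, R 4.3.3; lmFit and eBayes without covariates), Benjamini-Hochberg adjusted over all 22408 kept, at a threshold of 0.05. The same fit was run on each probe set minus the mean of its gene's other kept probe sets. Both fits were run on simulated data whose noise was drawn independently for each value, so array-wide differences were not simulated. Intervals are 95% intervals of the fit. Since the labels do not say whether the cultures were separate, p values cover only the spread among these samples, which may be technical.

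The members and gene lists were chosen with earlier results of these data known. Named genes are all members, the 3 genes of each list with the smallest p, and the 5 closest profiles to the member probe set with the smallest p. Listed genes without a single-gene probe set in the annotation used were not analysed here, and some items are not reported here. Alternatives varied the filter, centring, normalization, variance model, replicate block, averaging of probe sets and each array left out.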

Additional observations from a re-analysis of the deposited data

How the results depend on the processing

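The count of called member probe sets, 1, was the same with the filter at 6, with arrays centred on their median and with the trend and robust setting. It was 0 without the filter, 0 after a repeated quantile normalization and 0 with the replicate block, and ran from 0 to 2 with single arrays left out. With the replicate block, 91 probe sets were called in all against 486 without it, 0 genes in the 6 context lists against 3, and HSPA5 230031_at had an adjusted p of 0.148. The labels do not say whether the shared replicate numbers pair the arrays. Same-numbered arrays' deviations from their group means correlated at -0.361, -0.266 and -0.002 for replicates 1, 2 and 3. No array correlated best with its own number, but deviations within groups of 3 arrays cannot exclude a pairing. The lists had 5 calls with the filter at 6 and 0 to 7 with single arrays left out, and over all probe sets there were 96 to 572 calls with single arrays left out. The count of called member genes, 0, became 1 (HERPUD1) without anti-miR-21 replicate 1 and was 0 otherwise, averaging included. The members' median stayed between -0.028 and 0.012 with single arrays left out, and the difference between HSPA5 probe sets between -0.61 and -0.42. Of the members' 263 single comparisons with an alternative, 235 kept direction and side of the threshold, 8 lost the call (all HSPA5 230031_at), 1 gained it and 19 changed sign, none of them called. With single arrays left out, the log2 fold changes of the probe sets that changed sign ran from -0.026 to 0.156 for XBP1 200670_at, -0.162 to 0.00495 for CALR 200935_at, -0.025 to 0.115 for SEL1L 202064_s_at, -0.083 to 0.030 for ATF6 203952_at, -0.034 to 0.144 for ATF6 217550_at, -0.061 to 0.042 for ATF6 226941_at, -0.039 to 0.087 for HSPA5 211936_at, -0.198 to 0.328 for HSP90B1 216450_x_at, -0.083 to 0.145 for EIF2AK3 218696_at and -0.034 to 0.162 for ERN1 235745_at. The control differences ran from -0.00503 to 0.0633 (ACTB) and -0.00475 to 0.0064 (GAPDH). With 1 array left out an arm holds 2 arrays, and the variance is pooled over both arms. No scanner files were used, so background correction could not be varied.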
